A study of Homo sapiens with 61 samples.

Results

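The cytosolic ribosomal proteins are described here as a set of genes across 14 groups of human neurons. They were taken as all protein-coding genes whose symbol begins with RPL or RPS and a number, or is one of RPLP0, RPLP1, RPLP2 and RPSA, without the RPS6 kinases, RPS19BP1 and pseudogenes. Of 58440 gene identifiers in each count table, 90 matched, of which 3 are read-through loci that join a ribosomal protein gene to its neighbour and are kept apart. Of the other 87 genes, 85 passed the filter on low counts in at least 1 experiment, 52 of the large and 33 of the small subunit. Experiment 1 tested 84 of them among 18235 genes, and experiment 2 tested 85 among 20759 genes. RPL10L, with 0 to 15 counts a library, passed only in experiment 2, and RPL3L, with 0 to 14 counts there, passed in neither. RPS4Y2 also passed in neither, and no level of a Y-linked gene is given.

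All neurons derive from WTC11, a widely used human iPSC line, in which the neurogenic factor NGN2 is switched on. Its cassette in the lines of experiment 1 is driven by doxycycline. In experiment 1 the lines were wild type (WT), DLK KO, LZK KO and a DLK LZK double KO, with 4 libraries in each of 8 groups. DLK (gene MAP3K12) and LZK (MAP3K13) are related kinases upstream of JNK. In experiment 2, neurons with the CRISPR interference machinery carried, by lentivirus, a scrambled guide (Control gRNA) or a guide against ATF2 or JUN, both bZIP transcription factors, with 5 libraries a group and 4 for ATF2 gRNA with vincristine. Each line or guide was compared on day 14 with DMSO vehicle, labelled untreated, and with 5 nM vincristine, a drug that disrupts microtubules, for 16 hours; the extraction protocol in the labels gives a range of days instead. How many clones stand behind a knockout line, and whether the libraries of a group are separate differentiations, is not given in the sources used here, so the p-values measure the spread between these libraries only.

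A ribosome joins a small subunit, which reads the mRNA, to a large subunit, which links the amino acids. Each subunit holds ribosomal RNA and 1 copy of nearly every ribosomal protein, and their mRNAs are typically made and translated together. Those mRNAs typically begin with a cytosine and a run of pyrimidines, the 5′ terminal oligopyrimidine (TOP) motif, through which mTOR signalling controls their translation. RPLP0, RPLP1 and RPLP2 form the stalk that recruits elongation factors. A few genes have a second, similar copy elsewhere in the genome (a paralog), such as RPS27L, a known target of p53, beside RPS27.

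Most members with a listed transcript start begin with such a run of pyrimidines. The 21 that do not include several paralogs and also other members such as RPL3 and RPL4. A start was listed in the RefSeq table (GRCh38.p14) for 69 of the 85 members, and 48 of these (69.6%) had a start with C followed by at least 4 pyrimidines, against 5.14% of 27305 genes with a listed start. The windows printed here show 4 paralog pairs, and then 6 members that the comparisons turn on, as 15 bases before and 15 bases from the start on the gene's own strand. Capitals mark a run of that kind that begins at the start.
RPS27, chr1:153990747-153990776, plus strand: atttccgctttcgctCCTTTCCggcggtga
RPS27L, chr15:63157463-63157492, minus strand: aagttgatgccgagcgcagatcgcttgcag
RPL36A, chrX:101390996-101391025, plus strand: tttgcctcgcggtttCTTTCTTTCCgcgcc
RPL36AL, chr14:49620612-49620641, minus strand: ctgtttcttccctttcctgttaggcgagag
RPL26, chr17:8383179-8383208, minus strand: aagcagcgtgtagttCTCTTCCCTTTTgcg
RPL26L1, chr5:172958714-172958743, plus strand: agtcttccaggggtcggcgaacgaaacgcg
RPL22, chr1:6199581-6199610, minus strand: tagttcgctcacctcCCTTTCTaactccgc
RPL22L1, chr3:170870181-170870210, minus strand: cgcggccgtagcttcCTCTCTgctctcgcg
RPL37A, chr2:216498829-216498858, plus strand: gcaccgcgtctcttcCTTTCTgggctcgga
RPS23, chr5:82278340-82278369, minus strand: tcctgcggtgcttctCTCTTTCgctcaggc
RPS25, chr11:119018329-119018358, minus strand: tctgagcagcgcttcCTTTTTgtccgacat
RPLP1, chr15:69452803-69452832, plus strand: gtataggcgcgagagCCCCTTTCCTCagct
RPL28, chr19:55385917-55385946, plus strand: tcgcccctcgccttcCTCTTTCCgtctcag
RPS29, chr14:49598696-49598725, minus strand: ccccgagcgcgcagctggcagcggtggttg

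RPS27L and RPL26L1 had a purine at the listed start, while RPL22L1 had a run of 6 bases beside 7 in RPL22. RPL36AL had 3 pyrimidines from its listed start, too few for the rule, directly after 12 more that lie before it. RPS29 had 1 pyrimidine there. RPL26L1 has 2 listed starts, of which 1 is shown. The letters TGACGTCA, a palindrome that CREB and ATF proteins are known to bind, were searched for in the window from 250 bases before to 50 after each start. They occurred in 3 of 69 members (4.35%) and in 2.25% of all 27305 genes.
RPLP2, chr11:809863-809892, plus strand: tgagcgcctcgTGACGTCActctgaggcgc
RPL18, chr19:48619217-48619246, minus strand: tcgcacccatgTGACGTCAcggcggcgcca
RPL3, chr22:39319767-39319796, minus strand: gtctccgaagcTGACGTCAacttctgaacg

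Here the capitals mark the motif, which ended 85 bases before the start of RPLP2, 49 before that of RPL18 and 154 before that of RPL3. The AP-1 letters TGACTCA, on either strand, were in 1.45% of members (RPL24) and 6.05% of all genes. A match of letters shows no binding, and these data hold no measurement of it.

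Per kilobase of annotated exon, the members spanned a wide range of levels, in CPM (counts scaled to a common library size, with factors from the trimmed mean of M-values). In untreated WT libraries the median over 83 members was 57.9 CPM per kb, with 294 ± 30.6 (SD, n = 4) for RPL13A, a large-subunit protein, at the top. In untreated Control gRNA libraries the median over 84 members was 80.1, and RPS12, a small-subunit protein, led with 407 ± 12.3 (SD, n = 5), far above the 283 ± 12.5 of RPS2, the next in order. RPL13A, at 274 ± 10.9, lay within the spread of RPS2. With the length of 1 transcript in place of all annotated exons RPS12 ranked 13 and RPS2 led, so the order depends on the length used. The 2 experiments were normalised apart, so no level is compared between them.

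Paralogs lay well under their partners. On the same per-kb scale in untreated Control gRNA libraries, RPS27 stood at 188 ± 9.38 and RPS27L at 1.24 ± 0.135, RPL22 at 50.3 ± 1.40 and RPL22L1 at 1.26 ± 0.197, and RPL39 at 46.9 ± 0.503 and RPL39L at 0.683 ± 0.288 (SD, n = 5). RPL7L1 (19.1 ± 0.534) was nearer to RPL7 (119 ± 4.17), and RPL26L1 (14.2 ± 1.39) to RPL26 (27.6 ± 0.879). RPL36AL was the exception, at 64.0 ± 2.30 against 0.959 ± 0.179 for RPL36A.

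RPL36A, RPL17 and RPS10 are core members with a level close to that of the low paralogs. Their per-kb means in untreated Control gRNA libraries were 0.959, 3.65 and 0.449. These genes share most of their sequence with other annotated transcripts: 77.3%, 64.5% and 80.6% of the 100-base windows of RPL36A, RPL17 and RPS10 also occur in a transcript of another gene, such as a processed pseudogene or a read-through locus. The median over the 85 members was 5.06%, and 26 had no shared window. Reads that fit several places or overlapping genes are commonly dropped by counting tools, and the setting used was not given in the sources used here. High sharing did not always go with a low level: RPS27, at 60.0%, had rank 10 of 84 in Control gRNA libraries. Over the members, level and sharing had a Spearman rho of 0.148 in Control gRNA and 0.0431 in WT untreated libraries, where the points share libraries and annotation. The plot of level against shared sequence shows these genes apart at the lower right.

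**Figure D1:**
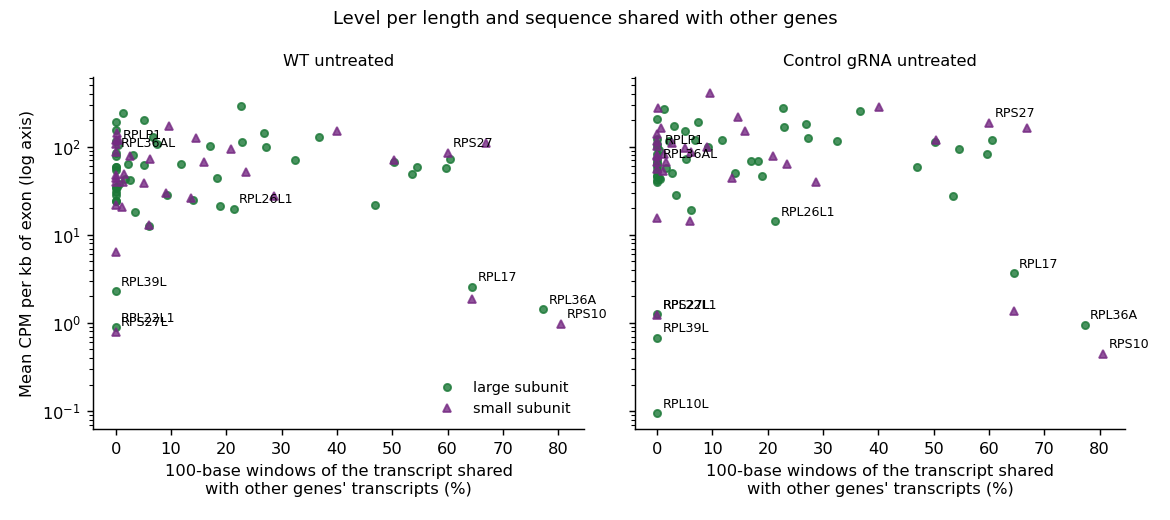
Mean CPM per kb of exon (log axis) of each member against the share of 100-base windows of its transcript that also occur in other genes' transcripts (%), in untreated WT (left) and untreated Control gRNA (right) libraries. RPL17, RPL36A and RPS10 share 64.5% to 80.6% of their windows and lie far under most other members of high sharing.

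Libraries held 8.41 to 14.65 M counted fragments in experiment 1 and 38.9 to 88.4 M in experiment 2, and the members took 1.28% to 2.07% and 2.14% to 2.66% of them, pseudogenes at most 0.0392%. The targeted genes fit their labels: against WT, MAP3K12 fell by 1.79 in DLK KO and 2.21 in the double KO, and MAP3K13 fell by 1.63 in LZK KO and 1.74 in the double KO. ATF2 fell by 7.88 under its guide and JUN fell by 4.96 under its own, all on the log2 scale. These genes were also called lower outside their own line or guide, again without drug. JUN fell by 2.08 under the ATF2 guide, 1.34 in DLK KO and 1.82 in the double KO. ATF2 fell by 0.99 in DLK KO, and MAP3K12 by 0.43 under the ATF2 guide and 0.26 in LZK KO. All 9 neuronal markers were above 1 CPM in each untreated group, with summed levels of 7020 to 10200 CPM. Of 7 pluripotency markers 2 or 3 were above 1 CPM in untreated groups, while ZFP42 was at 0 in every untreated group but WT, TDGF1 in every one but WT and the double KO, and NANOG in ATF2 and JUN gRNA libraries. They summed to 11.0 to 11.3 CPM in untreated WT, 73.7 to 82.2 in the double KO and 54.5 to 60.6 in ATF2 gRNA libraries, and 6 proliferation markers to 12.9 to 15.8 in WT and 69.9 to 75.9 in LZK KO. The 6 neural progenitor markers summed to 751 to 807 CPM in untreated and 1010 to 2070 CPM in treated WT libraries, and to 1270 to 1350 and 2550 to 2660 CPM in Control gRNA libraries. They were also higher with vincristine, without overlap, in DLK KO (244 to 315 untreated, 547 to 670 treated), LZK KO (544 to 705 and 968 to 1240) and JUN gRNA libraries (938 to 1060 and 1670 to 1800). In the double KO (291 to 306 and 294 to 302) and under the ATF2 guide (779 to 863 and 775 to 879) untreated and treated libraries overlapped. Untreated libraries of the 3 knockout lines thus lay below WT, and those of both guides below Control gRNA. Whether these marker levels bear on the results below was not tested. More or fewer cells of a type and more or less marker RNA per cell cannot be told apart in these bulk samples.

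The share of counts in the members overlapped between untreated and treated libraries in every line or guide but the double KO. In untreated WT libraries it was 1.725%, 1.644%, 1.732% and 1.443%, and with vincristine 1.345%, 1.67%, 1.331% and 2.074%. The last of these, WT vincristine replicate 4, was the highest of the experiment. Among untreated groups of experiment 1 the double KO was lowest and narrowest, at 1.38% ± 0.0591 (SD, n = 4), with its replicate 1, at 1.447%, just above the lowest WT library. With vincristine the double KO libraries lay at 1.479% to 1.717%, above all 4 untreated ones, which lay at 1.325% to 1.447%. In experiment 2 the untreated JUN gRNA libraries lay at 2.14% to 2.23%, all below the 2.24% to 2.44% of the untreated Control gRNA libraries.

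**Figure D2:**
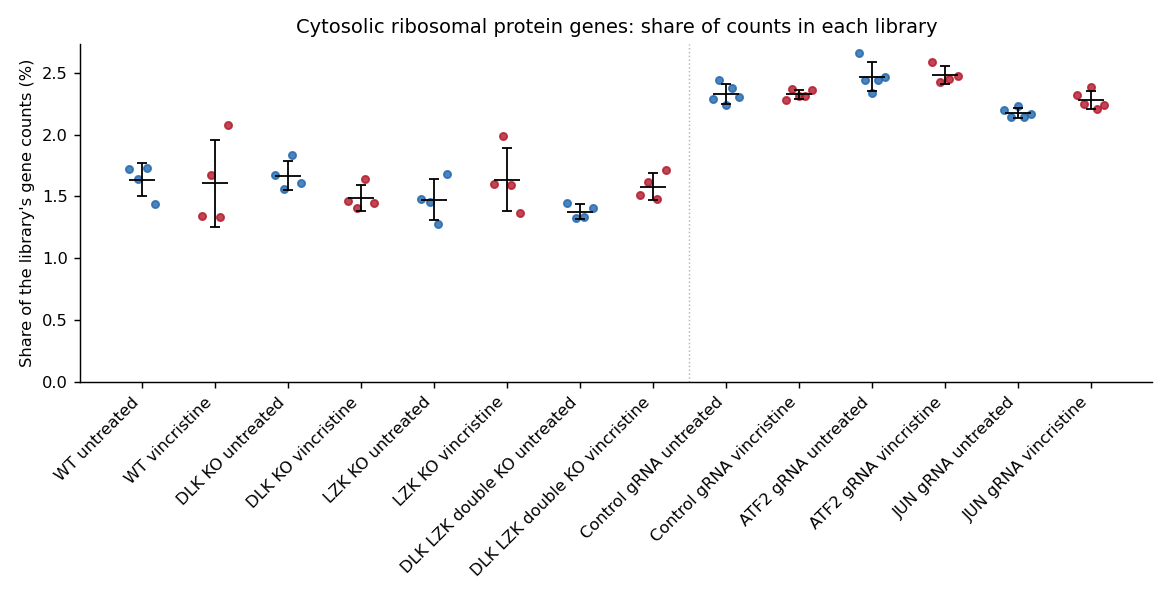
Share of each library's gene counts (%) in the 87 cytosolic ribosomal protein genes, by group, untreated in blue and vincristine in red; lines and bars are the mean and SD of 4 or 5 libraries, and the dotted line parts the 2 experiments. WT vincristine replicate 4 stands at 2.07%, and untreated JUN gRNA libraries lie under all untreated Control gRNA libraries.

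Members moved together from library to library. After each group's mean was removed, the mean pairwise Pearson r over 82 members was 0.806 across the 32 libraries of experiment 1, beside 0.00494 over all 13811 genes, and 0.338 across the 29 libraries of experiment 2, beside 0.0054. In experiment 1 the members' mean ran from 0.353 below its group's mean, on the log2 scale, in LZK KO vincristine replicate 4, to 0.446 above it in WT vincristine replicate 4. In experiment 2 the range was -0.0799 to 0.103. Small RNA genes took 1.52% to 4.77% of the counts of a library in experiment 1 and at most 0.0141% in experiment 2. With group means removed, the log2 of that share had a Pearson r with the members' mean of 0.715 in experiment 1 and -0.356 in experiment 2. The small RNA share was entered as a covariate in an alternative fit, whose counts stand beside the comparisons in which they differ by over 1.5 times. It differed between groups, at 1.686% to 2.539% in untreated WT, 2.572% to 3.272% in untreated LZK KO and 2.303% to 3.156% in untreated double KO libraries. In Control gRNA libraries it was 0.00744% to 0.009211% untreated and 0.00937% to 0.01407% with vincristine. Where groups overlap in it little or not at all, this fit cannot tell the share from the group.

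In WT neurons, few ribosomal protein mRNAs passed a test for a change with vincristine, while much of the transcriptome did. By edgeR's quasi-likelihood test with Benjamini-Hochberg adjustment over all genes, under 0.05 called, 1 of 84 members rose and 0 fell, where 15.7% of all genes rose and 14.5% fell. Their median log2 fold change was -0.07, with 29 above and 55 below 0, and in 2 of 84 the treated and untreated libraries did not overlap, against 25% of all genes. The median SE of the members was 0.15, so changes of that size, and larger ones, could go uncalled. In LZK KO and the double KO, also with median SEs of 0.15, a median change of 0.21 with vincristine came with 0 calls. The gene that rose was RPS29, a zinc-binding small-subunit protein. RPS29 stood at 64.0, 59.7, 65.6 and 59.3 CPM untreated and at 78.6, 81.9, 79.3 and 104 CPM with vincristine. All 4 treated libraries lay above all untreated ones, with replicate 4 farthest, and the log2 fold change was 0.47 ± 0.12 (SE, adjusted p = 0.00216). Leaving out WT vincristine replicate 4 raised the count to 12, 11 of them lower, and RPS29 still passed. The count was 2 when WT vincristine replicate 2 was left out, 3 for WT untreated replicate 3 and 4 for WT untreated replicate 4, and 7 members, 6 of them lower, with the small RNA share as a covariate.

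No member passed in the 3 knockout lines, although the members lay mostly to 1 side. In DLK KO 82 of 84 were below 0 (median -0.14), where 4.24% of all genes rose and 2.28% fell. In LZK KO 77 of 84 were above 0 (median 0.21; 2.27% and 1.61%), and in the double KO 81 of 84 (median 0.21; 0.00548% and 0.0603%). At an unadjusted p under 0.05 edgeR gave 1, 21 and 6 members, and DESeq2 called 0, 1 and 0. Treated and untreated libraries did not overlap for 8 of 84 members in DLK KO (19.5% of all genes), 8 in LZK KO (7.79%) and 30 in the double KO (9.94%). These counts of 0 come from the fit over all 8 groups. Fitted on the double KO libraries alone, with their own filter and scaling factors, 44 members were called higher and 0 lower, where 3.62% of 16304 genes were higher and 2.68% lower. On the DLK KO libraries alone 9 were called lower and 0 higher, where 6.75% of 15971 genes were lower and 13.3% higher. What in these fits moves the counts was not tested. In LZK KO, 1 member was called without LZK KO vincristine replicate 4. The members' common deviation and the small RNA share described above differ between these libraries too (LZK KO vincristine libraries held 2.15% to 4.77% small RNA), and with that share as a covariate the medians were -0.06, 0.05 and 0.11.

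In Control gRNA neurons, the deeper experiment, vincristine lowered a part of the members slightly and raised RPS27L. Of 85 members 2 rose and 23 fell, where 17.1% of all genes rose and 18.1% fell, and the median log2 fold change was -0.05. The groups did not overlap for 21 of 85 members and for 28.9% of all genes. The lowest were RPL35 and RPS26 and the highest RPS27 and its paralog RPS27L. RPL35, a large-subunit protein by the exit tunnel, stood at 214, 250, 222, 246 and 218 CPM untreated and at 189, 201, 190, 194 and 189 CPM with vincristine. The groups did not overlap, and RPL35 fell by 0.26 ± 0.04 (SE, adjusted p = 8.53e-07). RPS26, a protein at the mRNA exit, fell by 0.22 ± 0.05 (adjusted p = 0.000153). With library totals in place of scaling factors the split was 6 higher and 10 lower, and with the small RNA share as a covariate it was 1 and 8. That share did not overlap between untreated and treated Control gRNA libraries, so this fit cannot tell it from the drug.

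RPS27L was the member that moved most. It stood at 10.4, 11.9, 11.1, 10.0 and 13.1 CPM in untreated Control gRNA libraries and at 19.8, 16.6, 20.5, 19.9 and 20.1 CPM with vincristine. The treated libraries all lay above the untreated ones, replicate 2 nearest to them, and RPS27L rose by 0.78 ± 0.09 on the log2 scale (SE, adjusted p = 2.03e-09). RPS27, which has a pyrimidine run where RPS27L has none, stood at 200, 200, 181, 187 and 204 CPM untreated and at 213, 206, 212, 216 and 202 CPM with vincristine, overlapping by 1 library. Its change was 0.11 ± 0.04 (SE, adjusted p = 0.0274), a call that was lost with the small RNA covariate, with length offsets, and without any 1 of Control gRNA untreated replicates 3 and 4 or vincristine replicates 3 and 4 (highest adjusted p = 0.101).

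Under the ATF2 guide, RPS27L was already high before the drug. Untreated ATF2 gRNA libraries held 18.4, 20.0, 19.7, 19.0 and 22.4 CPM of RPS27L, all above every untreated Control gRNA library, a difference of 0.82 ± 0.09 (SE, adjusted p = 4.37e-10). With vincristine they held 22.8, 21.2, 23.6 and 20.9 CPM, overlapping the untreated ones, a change of 0.15 ± 0.10 (adjusted p = 0.439). The vincristine effect was smaller by 0.62 ± 0.13 than in Control gRNA neurons, an interaction that passed (log2 difference -0.62, adjusted p = 4e-04). The untreated comparison and the interaction use the same untreated Control gRNA and ATF2 gRNA libraries, with opposite signs, so they are not independent.

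Under the JUN guide, untreated libraries held 11.4, 10.2, 12.8, 14.6 and 12.1 CPM of RPS27L, overlapping the Control gRNA libraries, and treated ones 14.3, 19.2, 17.6, 15.9 and 14.3 CPM. Here RPS27L rose by 0.41 ± 0.09 (SE, adjusted p = 0.000829), and the groups overlapped, since treated replicates 1 and 5 lay just under untreated replicate 4. The difference from the effect in Control gRNA neurons was -0.36 ± 0.13 (adjusted p = 0.0482) and did not hold in 17 of 30 alternatives, the replicate block among them (highest adjusted p = 0.139). In experiment 1, with 47 to 109 counts a library, WT libraries held 8.51, 7.92, 7.09 and 5.66 CPM untreated and 6.69, 7.46, 7.04 and 11.8 CPM with vincristine. These groups overlapped, with a log2 change of 0.16 ± 0.21 (adjusted p = 0.604), and RPS27L passed in no vincristine comparison of experiment 1.

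**Figure D3:**
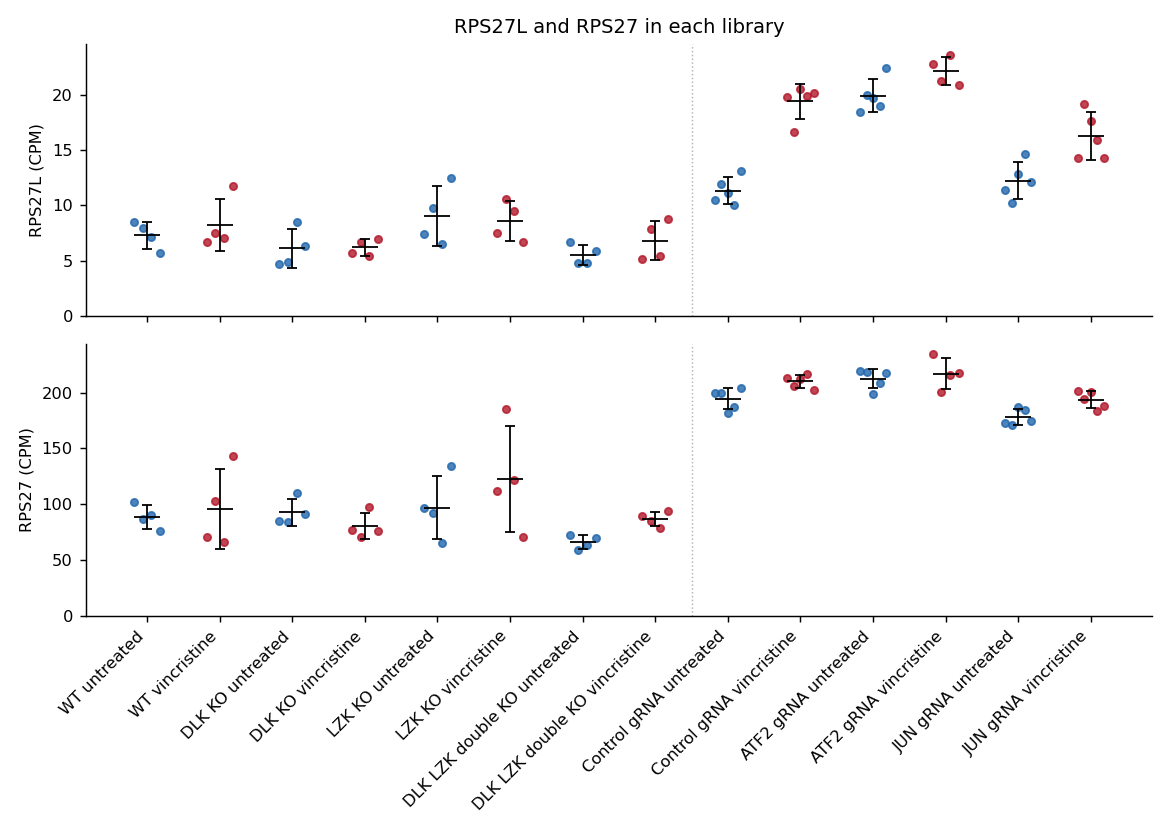
RPS27L (top) and RPS27 (bottom) in CPM in each library by group, untreated in blue and vincristine in red, with the mean and SD of 4 or 5 libraries; the dotted line parts the experiments, which were normalised apart. RPS27L is near 20 CPM in Control gRNA vincristine and both ATF2 gRNA groups and near 11 to 12 CPM in untreated Control and JUN gRNA groups.

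With vincristine, 2 members passed under the ATF2 guide and 10 under the JUN guide, RPS27L among the latter. Of 85 members under the ATF2 guide, 0 rose and 2 fell, RPL36AL by 0.21 and RPL10A by 0.16, where 1.88% of all genes rose and 4.22% fell. Groups did not overlap for 3 members and 7.36% of all genes. RPL36AL lost the call without any 1 of ATF2 gRNA untreated replicates 1, 2 and 4 and vincristine replicates 2, 3 and 5, and RPL10A without untreated replicate 1 or vincristine replicate 4. The count was 0 without untreated replicate 1, 1 without any 1 of the other untreated replicates 2 and 4 or vincristine replicates 2 to 5, and 4 without untreated replicate 3. Under the JUN guide 8 rose and 2 fell (7.58% and 8.31% of all genes), with RPLP1, a stalk protein, up by 0.14 ± 0.04 (adjusted p = 0.0183) next to RPS27L. RPL35 and RPL10A, a large-subunit protein of the L1 stalk, fell by 0.19 ± 0.04 (adjusted p = 0.000377) and 0.14 ± 0.04 (adjusted p = 0.0084). RPL35 stood at 224, 211, 233, 218 and 216 CPM untreated and at 197, 190, 200, 189 and 190 CPM treated, again without overlap, as held for 7 members and 11.8% of all genes. The count was 3 without JUN gRNA untreated replicate 2, 6 without untreated replicate 5 and 4 without vincristine replicate 3, and library totals alone gave 21 higher and 1 lower.

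**Figure D4:**
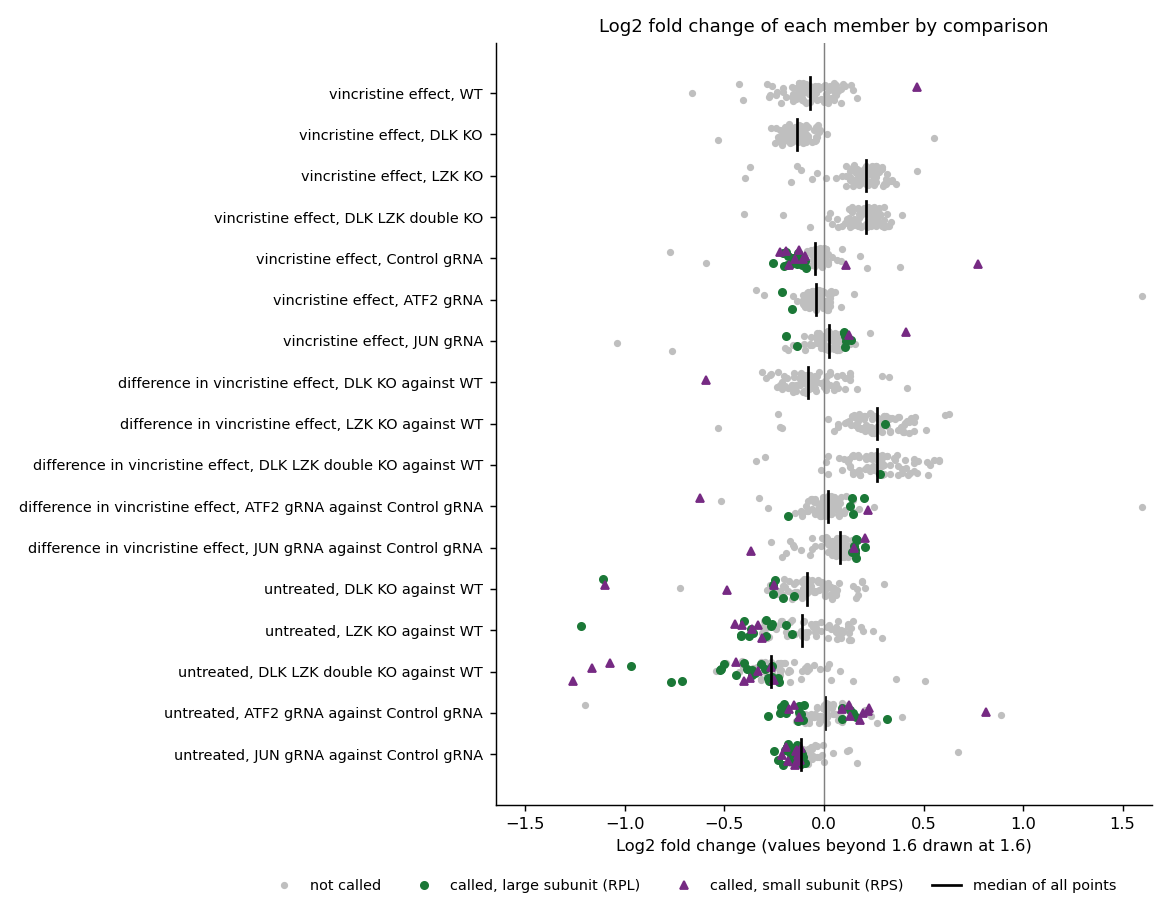
Log2 fold change of each member (points, Y-linked genes left out) in the 17 comparisons, with called large-subunit members as green circles, called small-subunit members as purple triangles, others in grey and the median as a black line; RPL10L is drawn at the limit of 1.6 in 2 comparisons. With scaling factors the called members of the untreated knockout comparisons all lie below 0, while library totals alone put 6 in DLK KO and 1 in the double KO above it, and RPS27L is the called point farthest right in Control gRNA neurons.

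Tested as differences between effects, few members passed, and the comparisons within an experiment share their control libraries. Each difference also uses the same untreated libraries as the untreated comparison of that line or guide, with opposite signs, so the results are not independent. Medians of the difference and the untreated comparison were 0.27 and -0.26 in the double KO and 0.26 and -0.11 in LZK KO. They were -0.08 and -0.08 in DLK KO, 0.08 and -0.11 under JUN and 0.02 and 0.00 under ATF2. Of the members, 0 had a higher and 1 a lower vincristine effect in DLK KO than in WT (all genes 9.95% and 9.41%). That 1 was RPS29, with a log2 difference of -0.59 ± 0.16 (SE, adjusted p = 0.0105). RPS29 stood at 67.0, 63.6, 74.1 and 70.3 CPM in untreated DLK KO libraries and at 60.6, 56.8, 68.2 and 66.6 CPM with vincristine, overlapping groups, where WT groups did not overlap. Leaving out DLK KO untreated replicate 4, or in WT the untreated replicate 1 or the vincristine replicate 1 or 3, gave 2.

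RPL8, a large-subunit protein at the centre of peptide bond formation, was the member with a higher effect in LZK KO (0.31 ± 0.10, adjusted p = 0.0373; all genes 5.88% higher and 6.53% lower) and in the double KO (0.28 ± 0.10, adjusted p = 0.0418; 9.21% and 10.2%). RPL8 stood at 360, 353, 347 and 286 CPM untreated and 288, 329, 262 and 326 CPM treated in WT, and at 254, 256, 254 and 243 CPM untreated and 285, 283, 263 and 286 CPM treated in LZK KO. The LZK KO groups did not overlap and the WT groups did. The LZK KO call did not hold in 14 of 26 alternatives (highest adjusted p = 0.751) and the double KO call in 13 of 26 (0.464). Both calls were lost with GC content offsets, with no filter and with only the groups compared. Library totals also ended the LZK KO call, and the replicate block the double KO call. Both calls were lost, too, without any 1 of WT untreated replicates 1 to 3 or WT vincristine replicates 1 and 3. For LZK KO the same held for LZK KO untreated replicates 1 and 4 and vincristine replicates 1, 2 and 4, and for the double KO for its untreated replicates 2 and 3 and vincristine replicates 2 and 4. Without WT vincristine replicate 4, 12 members passed in LZK KO and 20 in the double KO, all higher. In the double KO the count was 3 without WT untreated replicate 4, 2 without WT vincristine replicate 2, 2 without double KO vincristine replicate 3, and 4, all higher, with the small RNA share as a covariate.

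In experiment 2 the vincristine effect was higher for 6 and lower for 2 of 85 members under the ATF2 guide than under the Control guide (10.2% and 10.4% of all genes), and higher for 10 and lower for 1 under the JUN guide (8.71% and 7.06%). RPS7, a small-subunit protein, was among the highest in both, at 0.22 ± 0.06 (adjusted p = 0.00413) and 0.21 ± 0.06 (adjusted p = 0.00823). RPL4, at 0.21 ± 0.04 (adjusted p = 0.000242), led under the JUN guide. RPL31 was lower under the ATF2 guide by 0.18 ± 0.05 (log2 difference -0.18, adjusted p = 0.00881), and RPL8 higher by 0.20 ± 0.07 (adjusted p = 0.0232). RPL15 (0.14 ± 0.05, adjusted p = 0.0284) was also higher under the JUN guide. The call for RPL15 did not hold in 11 of 30 alternatives and that for RPL8 in 8 of 29. With GC content offsets the split was 16 higher and 1 lower under ATF2 and 18 and 0 under JUN, and with library totals alone 2 and 2, and 3 and 1. With the small RNA share as a covariate it was 0 higher and 2 lower under ATF2 and 3 and 0 under JUN. Single libraries moved the ATF2 count to 4 (Control gRNA untreated 2, ATF2 gRNA vincristine 2 or 5) or 5 (ATF2 gRNA untreated 2, vincristine 4), and the JUN count to 3 (JUN gRNA untreated 5), 4 (JUN gRNA vincristine 3), 5 (Control gRNA untreated 2, JUN gRNA untreated 2) or 7 (Control gRNA vincristine 4).

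Without drug, every member called in a knockout line was lower than in WT, while other settings also called members higher, up to 6 in DLK KO with library totals alone and up to 2 in the double KO with only the 2 groups fitted. The share of members called lower was 10.7% in DLK KO, under the 17.9% of all genes, 21.4% in LZK KO beside 16.8%, and 34.5% in the double KO beside 22.1%. The lowest members of DLK KO and the double KO had low neighbours on their chromosomes. In DLK KO, 0 of 84 rose and 9 fell (16.5% and 17.9% of all genes), with a median of -0.08, and groups did not overlap for 10 of 84, against 36.6% of all genes. RPL37A, a large-subunit protein on chromosome 2, stood at 276, 233, 252 and 201 CPM in WT and at 104, 96.2, 134 and 111 CPM in DLK KO. RPS23, a small-subunit protein of the decoding site on chromosome 5, stood at 357, 323, 344 and 292 CPM in WT and at 146, 148, 165 and 155 CPM in DLK KO. Every DLK KO library lay far below every WT library for both genes, which fell by 1.11 ± 0.16 (SE, adjusted p = 2.66e-06) and 1.10 ± 0.14 (adjusted p = 3.7e-07).

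The tested genes next to these 2 were low as well. The median log2 fold change of the 10 nearest non-member genes on each side was -0.72 around RPL37A, with 14 of 20 called lower, and -0.72 around RPS23, with 11 of 20. RPL37A and RPS23 themselves were also low in the DLK KO libraries with vincristine. There RPL37A was at 89.09 to 103.4 CPM in DLK KO and 171.5 to 309.5 in WT. RPS23 was at 127.7 to 169.5 CPM in DLK KO and 252.7 to 436.4 in WT. Neighbours were examined in the untreated comparisons only. No other member had neighbours with a median beyond 0.5 in either direction, and 7 of the remaining 81 were called lower. Of these, RPS6, the small-subunit protein that S6 kinases phosphorylate, stood at 319, 300, 307 and 248 CPM in WT and 210, 186, 235 and 206 CPM in DLK KO, without overlap. RPS6 fell by 0.49 ± 0.14 (adjusted p = 0.0059) while its neighbours had a median of 0.21. RPL13 and RPL14, the smallest of the called changes, were lower by 0.21 and 0.15, and their calls did not hold in 9 and 11 of 18 alternatives. The count was 5 when either DLK KO untreated replicate 4 or WT untreated replicate 3 was left out, and 20, 18 of them lower, when only the 2 groups were fitted (22.8% of all genes lower there). The small RNA share as a covariate gave 1 higher and 13 lower; with library totals alone it split into 6 higher and 3 lower, as the median of all genes moved by 0.13, and with GC content offsets into 1 and 4.

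In LZK KO, 0 of 84 rose and 18 fell (17.1% and 16.8% of all genes), with a median of -0.11 and no member whose neighbours had a median beyond 0.5 in size. Groups did not overlap for 10 of 84, against 30.8% of all genes. RPL39L, the paralog of RPL39 by the exit tunnel, had few counts, 22 to 39 a library in WT and 7 to 12 in LZK KO. It stood at 2.39, 2.05, 2.74 and 2.58 CPM in WT and at 0.910, 0.842, 1.02 and 1.41 CPM in LZK KO, with no overlap, and fell by 1.22 ± 0.33 (SE, adjusted p = 0.00394). RPS2, a small-subunit protein at the mRNA entry, stood at 376, 361, 389 and 319 CPM in WT and at 280, 249, 271 and 261 CPM in LZK KO, again without overlap, and fell by 0.45 ± 0.06 (adjusted p = 2.29e-07). RPL14 and RPL7L1 were the smallest calls, at -0.19 and -0.16. RPL7L1 lost its call without any 1 of WT untreated replicates 1, 3 and 4 or LZK KO untreated replicate 4. With the small RNA share as a covariate 50 members were called lower, where 15.1% of all genes were. That share did not overlap between untreated WT and LZK KO libraries, so this fit cannot tell it from the line.

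In the double KO, 0 of 84 rose and 29 fell (23.6% and 22.1% of all genes), and most of the set lay to 1 side, with a median of -0.26 and 77 of 84 below 0. In 30 of 84 the double KO and WT libraries did not overlap, against 47.2% of all genes. Of the 4 lowest members, RPS15A and RPS2 are on chromosome 16, RPS25 on 11 and RPL17 on 18. RPS15A stood at 93.8, 83.7, 91.2 and 77.8 CPM in WT and 38.5, 32.6, 38.3 and 35.5 CPM in the double KO. RPS2 stood at 376, 361, 389 and 319 CPM against 166, 161, 149 and 168 CPM. RPS25, a small-subunit protein, stood at 112, 97.8, 105 and 86.3 CPM against 51.8, 44.1, 48.2 and 46.6 CPM. None of these groups overlapped, and every double KO library lay far below every WT library.

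RPS15A fell by 1.26 ± 0.18 (SE, adjusted p = 1.05e-06), RPS2 by 1.17 ± 0.06 (adjusted p = 3.85e-18), RPS25 by 1.08 ± 0.19 (adjusted p = 2.99e-05) and RPL17, at 27 to 44 counts a double KO library, by 0.97 ± 0.21 (adjusted p = 0.000198). Their neighbours had medians of -0.87, -1.18, -0.90 and -0.87, with 16, 19, 18 and 17 of 20 called lower. These 4 members were also low in double KO libraries with vincristine: RPS2, for example, at 170, 170, 160 and 175 CPM against 357, 412, 336 and 390 in WT. What sets these stretches was not tested.

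Outside such stretches 25 of 78 members were called lower in the double KO, with a median of -0.26 where their neighbours' medians had a middle value of 0.01. RPL12, of the stalk base, stood at 265, 243, 253 and 217 CPM in WT and at 151, 135, 135 and 154 CPM in the double KO, and RPL23A, of the exit tunnel, at 323, 290, 313 and 239 CPM against 184, 161, 179 and 187 CPM. Neither overlapped. RPL12 fell by 0.77 ± 0.13 (adjusted p = 1.2e-05) and RPL23A by 0.71 ± 0.19 (adjusted p = 0.00244), while their neighbours had medians of -0.04 and -0.05. The smallest calls, RPL7A and RPL7L1, were both at -0.23, and that of RPL7A did not hold in 7 of 18 alternatives. The count was 65 when only the 2 groups were fitted (63 lower, where 29.1% of all genes were lower) and 74 with the small RNA share as a covariate, all lower, where 22.9% of all genes were lower.

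**Figure D5:**
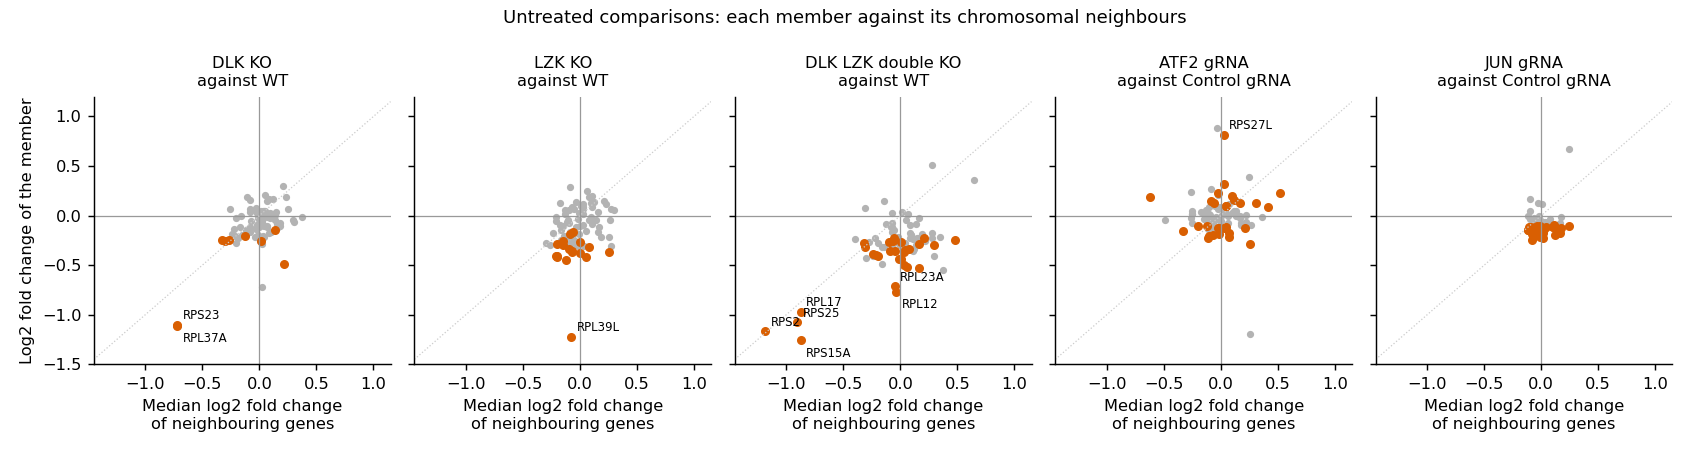
Log2 fold change of each member (y axis) against the median log2 fold change of up to 20 neighbouring tested genes on its chromosome (x axis) in the 5 untreated comparisons; called members in orange, others in grey, and the dotted line marks equal values. RPL37A and RPS23 in DLK KO and RPS15A, RPS2, RPS25 and RPL17 in the double KO lie at the lower left, with their neighbours below -0.5, while RPL12, RPL23A and RPL39L lie below neighbours near 0.

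Under the JUN guide the members that passed were all slightly lower. Of 85 members 0 rose and 40 fell without drug, where 5.78% of all genes rose and 5.46% fell; the median was -0.11, with 80 below 0, and in 29 of 85 the groups did not overlap, against 9.22% of all genes. Of the 40, 29 belong to the large and 11 to the small subunit. RPL28, a large-subunit protein, was the lowest. It stood at 255, 308, 269, 284 and 268 CPM in untreated Control gRNA libraries and at 233, 225, 250, 204 and 251 CPM in JUN gRNA libraries, with every JUN gRNA library below every Control library, and fell by 0.25 ± 0.06 (SE, adjusted p = 0.00346). RPL37A stood at 447, 484, 437, 475 and 438 CPM against 402, 384, 405, 370 and 382 CPM, without overlap, and fell by 0.23 ± 0.04 (adjusted p = 5.44e-06). The smallest calls, RPL5 and RPL15, were at -0.11 and -0.10 and did not hold in 10 and 13 of 20 alternatives. By transcript start, 23 of the 48 members with a start of C and at least 4 pyrimidines were called lower. Of the 21 members with only other listed starts, 11 were called lower. The count was 25 without Control gRNA untreated replicate 2 and also 25 without JUN gRNA untreated replicate 2, 26 with library totals alone, and 22 with no filter on low counts, all lower.

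Under the ATF2 guide members split in both directions. Of 85 members 14 rose and 15 fell (19.7% and 20.2% of all genes), with a median of 0.00, and groups did not overlap for 12 of 85, against 29.4% of all genes. The small subunit held 8 of the 14 that rose and 3 of the 15 that fell. Next to RPS27L, described above, RPLP1 rose most, from 306, 325, 303, 302 and 272 CPM in Control gRNA to 386, 361, 342, 402 and 388 CPM in ATF2 gRNA libraries. The groups did not overlap, and the change was 0.32 ± 0.04 (SE, adjusted p = 2.09e-08). RPL36AL fell by 0.28 ± 0.06 (adjusted p = 7.43e-05), from 45.3, 50.1, 47.4, 47.7 and 48.2 CPM to 40.6, 40.1, 37.6, 40.3 and 37.6 CPM. RPL26L1 was lower by 0.22 ± 0.09 (adjusted p = 0.0373), a call lost in 9 of 20 alternatives. RPS12 was up by 0.18 although its neighbours on chromosome 6 had a median of -0.62. With library totals alone the split was 37 higher and 4 lower, with GC content offsets 23 and 15, and with length offsets 8 and 26.

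The stalk proteins were not all called in the same comparisons, and differences between them were not tested. RPLP0 fell by 0.36 ± 0.11 in untreated LZK KO (adjusted p = 0.0123) and by 0.36 ± 0.11 in the double KO (adjusted p = 0.00859), and rose by 0.13 ± 0.04 under the ATF2 guide (adjusted p = 0.00637). RPLP1 rose under the ATF2 guide and, with vincristine, under the JUN guide. RPLP2, with the TGACGTCA letters in its window, fell by 0.19 ± 0.05 in untreated JUN gRNA neurons (adjusted p = 0.00406) and passed in no other comparison. Of the paralogs, RPL22L1 and RPL10L passed in none, and of the partners RPL3, a large-subunit protein that reaches toward the catalytic site, fell in Control gRNA neurons with vincristine by 0.19 ± 0.03 (adjusted p = 4.78e-06). Without drug RPL3 fell in LZK KO by 0.42 ± 0.07 (adjusted p = 3.61e-06), in the double KO by 0.26 ± 0.07 (adjusted p = 0.00122) and under the JUN guide by 0.13 ± 0.03 (adjusted p = 0.00563). The read-through locus RPL17-C18orf32, with 0 to 19 counts, passed the filter in experiment 2 and no test, and RPS10-NUDT3 and RPL36A-HNRNPH2 did not pass the filter.

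Other genes that build or surround the ribosome are given by their counts, and no difference between lists was tested. With vincristine in WT neurons, where 15.7% of all genes rose and 14.5% fell, 21 of 40 ribosome biogenesis factors fell and 0 rose, with RRS1, which assembles the 5S particle, falling by 1.07. In the same comparison 20 of 78 mitochondrial ribosomal proteins fell and 5 rose, and 4 of 19 other translation genes with TOP mRNAs rose and 0 fell. In Control gRNA neurons, where 17.1% of all genes rose and 18.1% fell, 15 of 40 biogenesis factors fell and 6 rose, 30 of 78 mitochondrial ribosomal proteins fell and 4 rose, and 4 of the TOP translation genes rose and 6 fell.

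Without drug, 7 of 19 TOP translation genes fell and 1 rose in the double KO, where 22.1% of all genes fell and 23.6% rose. In untreated JUN gRNA neurons 6 of these 19 fell, EIF3K by 0.20, and 0 rose, with 1 biogenesis factor called in each direction and 4 of 78 mitochondrial ribosomal proteins lower, where 5.46% of all genes fell and 5.78% rose. RACK1, a small-subunit protein outside the symbol rule, fell by 0.47 in untreated DLK KO, 0.39 in LZK KO, 0.44 in the double KO and 0.13 in JUN gRNA neurons. It rose by 0.10 in untreated ATF2 gRNA neurons and, with vincristine, by 0.15 under the JUN guide.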

How the data were processed

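Poly(A) RNA of 61 libraries was sequenced in 2 experiments. Reads were trimmed with cutadapt 3.4 and processed with STAR, Subread 2.0.1 and featureCounts on GRCh38, per the submitters' processing notes. The deposited values are whole-number gene counts, and per the file headers they came from alignments with duplicates marked. Strand, multi-mapping and duplicate settings are not given in the sources used here.

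Identifiers were matched to GENCODE 29 (58320 of 58440). The members and lists were chosen with earlier results of these data known. Each experiment was fitted over all its groups with edgeR 4.0.16 (filterByExpr, TMM factors, robust quasi-likelihood), adjusted by Benjamini-Hochberg over all genes and called under 0.05. A log2 fold change is the fitted one, and its SE is the size divided by the root of F. The script was tested on simulated data. Named members are the 2 highest and 2 lowest called in each comparison, the paralogs with their partners, and the stalk proteins. Alternatives were DESeq2 1.42.0, other scaling, filters, GC and length offsets, a replicate block, fits of the compared groups, each library left out, and, added after seeing the data, the small RNA share as a covariate. Replicate numbers did not pair samples (correlations -0.313 to 0.22). No 2 of 104 library pairs were copies (chi-square per degree of freedom 1.585 to 40.77). Counts in the members, 114883 to 253768 and 932186 to 2017599 a library, set the counting precision. The counts used here hold no library for replicate 1 of ATF2 gRNA with vincristine, and no count column was left unused.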

Additional observations from a re-analysis of the deposited data

Results flagged for a closer look

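Of 252 groups of 4 or 5 libraries looked at, 8 held a library far from the rest, and chance gives about 1 in 20 groups. In WT vincristine libraries replicate 4 stood apart for RPS27L (11.75 CPM), RPS29 (104.4 CPM) and RPL17 (6.578 CPM). The others were RPS27L at 16.62 CPM in Control gRNA vincristine replicate 2, RPS25 at 238.5 CPM in untreated Control gRNA, RPL28 at 288.5 CPM and RPL8 at 262.5 CPM in LZK KO vincristine, and RPL35 at 290.1 CPM in the untreated double KO.

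The vincristine effect differed between lines, by the interaction test, for RPS29 in DLK KO (log2 difference -0.59) and for RPL8 in LZK KO (0.31) and the double KO (0.28), each against WT. Against Control gRNA it differed under the ATF2 guide for RPS27L (-0.62), RPL31 (-0.18), RPL8 (0.20) and RPS7 (0.22), and under the JUN guide for RPS27L (-0.36), RPL15 (0.14), RPS7 (0.21) and RPL4 (0.21). The RPL8 call did not hold in 14 of 26 alternatives in LZK KO, 13 of 26 in the double KO and 8 of 29 under ATF2. Under JUN the RPS27L call did not hold in 17 of 30 and the RPL15 call in 11 of 30.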

How the results depend on the processing

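The counts of called members kept within 1.5 times in 246 of 362 alternatives, the named calls held in 742 of 906 and none of these changed sign. The values that moved follow, with the cause not tested.

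Under DESeq2 the count was 2 for vincristine in WT, 1 in LZK KO, and 2 for the difference in vincristine effect (below, the difference) in DLK KO and in the double KO. With RLE factors it was 2 in WT, 1 under ATF2 and 2 for the double KO difference. With library totals it was 16 in Control gRNA, 0 under ATF2 and 22 under JUN, 2, 0, 2, 4 and 4 for the differences in DLK KO, LZK KO, the double KO, ATF2 and JUN, and 26 in untreated JUN gRNA. With no filter it was 2 in WT, 1 in LZK KO and 5 under JUN, 0, 0, 4 and 2 for the differences in LZK KO, the double KO, ATF2 and JUN, and 22 in untreated JUN gRNA; at 1 CPM it was 1 in LZK KO and 2 for the DLK KO and double KO differences. Library totals moved the median of all genes in untreated DLK KO by 0.13.

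With GC content offsets it was 3 in WT, 1 in LZK KO and 1 under ATF2, 0, 2, 17 and 18 for the differences in LZK KO, the double KO, ATF2 and JUN, and 5 in untreated DLK KO. With length offsets it was 3 in WT, 0 under ATF2 and 5 under JUN, and 2, 3 and 14 for the differences in LZK KO, the double KO and ATF2. Fitting only the groups compared gave 9 in DLK KO, 44 in the double KO, 0 under ATF2 and 5 under JUN, 0 for the LZK KO and double KO differences, and 20 and 65 in untreated DLK KO and double KO. The small RNA covariate gave 7 in WT and 9 in Control gRNA, 4, 2 and 3 for the differences in the double KO, ATF2 and JUN, and 14, 50 and 74 in untreated DLK KO, LZK KO and double KO. Where the compared groups overlap little or not at all in that share, this fit cannot tell it from the group.

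The replicate block moved the count from 1 to 0 for the double KO difference and moved no other count by over 1.5 times; it also ended the calls of RPL8 (double KO difference), RPS27L (JUN difference), RPL14 (DLK KO), RPL7L1 (LZK KO) and RPL15 (JUN). The numbers do not pair the samples.

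Leaving out 1 library gave 1 to 12 in WT, 0 to 0 in DLK KO, 0 to 1 in LZK KO, 0 to 0 in the double KO, 20 to 27 in Control gRNA, 0 to 4 under ATF2 and 3 to 10 under JUN. For the differences it gave 1 to 2 in DLK KO, 0 to 12 in LZK KO, 0 to 20 in the double KO, 4 to 12 under ATF2 and 3 to 12 under JUN. Untreated it gave 5 to 8, 12 to 23, 20 to 32, 26 to 34 and 25 to 42 in DLK KO, LZK KO, double KO, ATF2 and JUN. Depth limits RPL39L, RPL17 and RPS27L in experiment 1.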
